A study of Homo sapiens with 2 samples.

Results

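The FOLR1-high cells were 730 of 2462 cell barcodes in a long-read single-cell RNA library made from a pool of ovarian cancer cell lines. They were chosen by their own counts. Barcodes with at least 1000 counts were kept, and the counts of FOLR1, CLDN3, DEFB1 and CXCL14 were summed. A barcode was a member when this sum was at least 2 counts and at least 75% of all counts over 10 calling genes. The other calling genes were ERBB2, NNMT, TSPAN1 and DHRS2, which chose 627 ERBB2-high cells, and RARRES2 and TMEM100, which chose 457 RARRES2-high cells. The labels tie no barcode to a cell line, so the classes are named by their genes and not by a line.

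The study pooled IGROV1, SK-OV-3 and COV504, established human ovarian cancer lines, in equal parts, and sequenced the pool on a PromethION nanopore instrument and on an Illumina instrument to benchmark Isosceles, a package for counting transcripts from long reads. All 3 classes come from the 1 PromethION library and share its preparation; no treatment is named in the labels. No replicate of that library was used, so no difference below has a test. Every interval is a 95% interval. Intervals of levels and of shares of counts cover counting error only. Those of shares of barcodes and of medians take the barcodes of this library as units. Levels are in CPM: the counts of a gene, summed over a class, scaled to a class total of 1000000.

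Folate receptor alpha, the product of FOLR1, is a folate-binding protein held to the outer cell membrane by a lipid anchor, and it is a target of antibody drugs in ovarian cancer. CLDN3 is a claudin, one of the membrane proteins that seal tight junctions between epithelial cells. DEFB1 is a secreted antimicrobial peptide and CXCL14 a secreted chemokine. Epithelial ovarian cancers often carry genes of the Mullerian duct lineage, such as the transcription factor PAX8, and they differ widely in how far they keep epithelial or take on mesenchymal genes.

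A total of 2129 barcodes had at least 1000 counts, and the FOLR1-high cells were 34.3% of them (32.3 to 36.3%). The ERBB2-high cells were 29.5% and the RARRES2-high cells 21.5%. A further 315 barcodes had no class: 107 of them held 0 or 1 calling counts and 208 held a mixture. All 730 members were also in the barcode list of the Illumina library, as were all 2462 barcodes. Members held 1041 to 20495 counts with a median of 5344.5, against medians of 5002 in the ERBB2-high and 6502 in the RARRES2-high cells. No doublet caller was applied; Scrublet, run as an alternative, marked 8 members (1.10%) and 39 of the barcodes with no class.

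The calling genes describe the rule and support nothing else; FOLR1 and CLDN3, the marker genes of these cells, are among them and are no separate check. FOLR1 was at 610 CPM in members, 29.8 CPM in ERBB2-high and 8.98 CPM in RARRES2-high cells, with at least 1 count in 87.5%, 13.1% and 3.72% of cells. CLDN3 was at 375, 23.6 and 79.6 CPM. CXCL14 stood at 625 CPM but was seen in only 35.8% of members, and DEFB1 stood at 149 CPM and was seen in 26.8%. Members had 2 to 79 counts of the 4 genes with a median of 8, and 610 of them had no count of the other calling genes. Near the limit on the share, 38 members lay between 75% and 85%, with median counts of 5 for the member genes and 1 for the ERBB2 group. Just outside, 15 barcodes lay between 65% and 75%, with medians of 2 and 1. Genes that mark immune, endothelial, stromal and red blood cells were close to absent: of 12 such genes with an entry of their own, 6 were at 0 in members, PTPRC among the others was at 0.228 CPM, and together they came to 6.85 CPM against 4.43 and 33.8 CPM. Endothelial CDH5 made up most of the last sum, at 3.88, 0.295 and 30.8 CPM.

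Of 8135 genes with a mean level over the 3 classes of at least 10 CPM, the calling genes left out, 226 were at least 2-fold higher in FOLR1-high cells than in both other classes (2.78% of the genes compared). Another 464 were at least 2-fold lower (5.7%). Ratios were taken after 10 CPM were added to each level, which understates the change of low genes. The same count gave 426 higher and 129 lower genes for the ERBB2-high cells, and 403 and 227 for the RARRES2-high cells. At a 4-fold limit the members had 55 genes higher and 89 lower. This balance moved with the scale. The median log2 ratio over all 8135 genes was -0.33 against ERBB2-high and -0.16 against RARRES2-high cells, and higher genes were 32.8% of the 690 called. Leaving mitochondrial and ribosomal protein genes out of the totals moved these medians to -0.08 and 0.06 and gave 379 higher and 371 lower genes, or 50.5% higher.

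The genes that set members apart most on the high side included an ion pump regulator entry, a gelsolin family gene, homeobox genes and metabolic enzymes. The highest ratio belonged to an entry on chromosome 11 (117801730 to 117877486, minus strand) that joins FXYD2 and FXYD6, small membrane proteins that tune the sodium pump; its counts cannot be divided between the genes. It stood at 1191 CPM (1159 to 1224) in members, 32.7 CPM in ERBB2-high and 13.5 CPM in RARRES2-high cells. At least 1 count was seen in 55.9% of members, 10.5% of ERBB2-high and 1.09% of RARRES2-high cells. Members were therefore high as a class while many single members showed no count: the middle member held 251 CPM and the highest 12073 CPM.

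SCIN, which encodes the actin-severing protein scinderin (chromosome 7, 12570686 to 12660179, plus strand), was at 305 CPM (289 to 322) in members. Its level was 10.0 CPM in ERBB2-high cells and 0.898 CPM (0.185 to 2.62) in RARRES2-high cells. It was detected in 64.0%, 4.15% and 0.219% of cells. After every cell was thinned to 2000 counts the shares were 39.6%, 1.85% and 0% and the order of the classes was the same.

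The homeobox transcription factor gene DLX5 (chromosome 7, 97020392 to 97025097, minus strand) was at 164 CPM (152 to 177) in members, 0.295 CPM in ERBB2-high and 4.79 CPM in RARRES2-high cells. Its neighbour DLX6, which lies on the same chromosome from 97005548 to 97011039 and was picked after its values were seen, was at 46.2, 0 and 5.69 CPM. Both stood well above their levels in the other classes. POU5F1, the pluripotency factor OCT4, was at 154 CPM (142 to 166) in members and at 4.13 and 0.599 CPM in the other classes. Reads of POU5F1 can be confused with those of its copies; the copy POU5F1B was at 1.83, 0 and 0 CPM. IGF2BP1, an RNA-binding protein of fetal tissue and tumours, was at 53.0 CPM (46.4 to 60.3) against 0.295 and 0.299 CPM. TOX3, a chromatin-associated regulator, was at 70.8 CPM against 0.885 and 0.898 CPM.

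Secreted and membrane genes formed another group. SEMA3D, a secreted axon guidance cue, was at 127 CPM (117 to 139) in members and below 1 CPM in both other classes, at 0.59 and 0.599 CPM. MMP7, a matrix protease of epithelial cells, was at 329 CPM (312 to 346) against 42.5 and 6.58 CPM. SLC34A2, the phosphate transporter NaPi2b, was at 70.1 CPM against 1.18 CPM in ERBB2-high cells and no count in RARRES2-high cells, at least 78.1-fold higher than the latter when 3 counts stand for 0. NaPi2b is, like folate receptor alpha, a surface protein used as an antibody drug target in ovarian cancer.

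SERPINF1, which encodes the secreted protein PEDF, was at 49.8 CPM (43.4 to 56.9) with no count in either other class, a level at least 56.3-fold and at least 55.5-fold higher. It was seen in 19.2% of members. Apolipoprotein gene APOC1 was at 70.4, 3.54 and 2.69 CPM. PDZK1IP1, a small membrane protein of epithelial cells, was at 185, 20.4 and 4.49 CPM, and the sodium-calcium exchanger gene SLC8A1 at 97.6, 6.49 and 2.39 CPM. In each of these the members stood above the others by more than the counting intervals.

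Enzymes came next. ALDH1A1, which makes retinoic acid and is used as a stem-like cell marker, was at 224 CPM (210 to 238) in members against 0.59 and 11.4 CPM. The glutathione transferase GSTM3 was at 456 CPM (436 to 476), 65.5 and 4.19 CPM, and GSTO2 at 94.1, 2.07 and 2.69 CPM. GPX7, a peroxidase of the endoplasmic reticulum, was at 70.4 CPM against no count in ERBB2-high cells, at least 79.5-fold higher, and against 3.59 CPM in RARRES2-high cells. CA2, carbonic anhydrase 2, was at 283, 37.2 and 18.6 CPM, and the thyroid hormone-binding protein gene CRYM at 84.8, 4.72 and 0.599 CPM.

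The remaining leaders were a keratin, RNA genes and ribosomal protein genes. KRT24 was at 91.8 CPM (83.1 to 101) against 0.295 CPM in ERBB2-high cells and no count in RARRES2-high cells, at least 102-fold higher than the latter. GAS5, a spliced host gene of small nucleolar RNAs, was at 662 CPM (638 to 687), 102 and 99.97 CPM. The unnamed genes AC007325.2 and AC022784.1 were at 128 and 62.6 CPM in members and at no more than 1.80 CPM elsewhere. AC007325.2 is listed on the scaffold KI270734.1 and not on a chromosome, and how its reads were assigned is not given. RPL22L1 was at 1305 CPM (1271 to 1339), 43.7 and 92.5 CPM, and seen in 97.3% of members; RPL14 was at 3476 CPM (3421 to 3532), 308 and 467 CPM. Ribosomal protein genes have many near-identical copies, and how reads of those copies were assigned is not given, so these levels are uncertain.

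**Figure D1:**
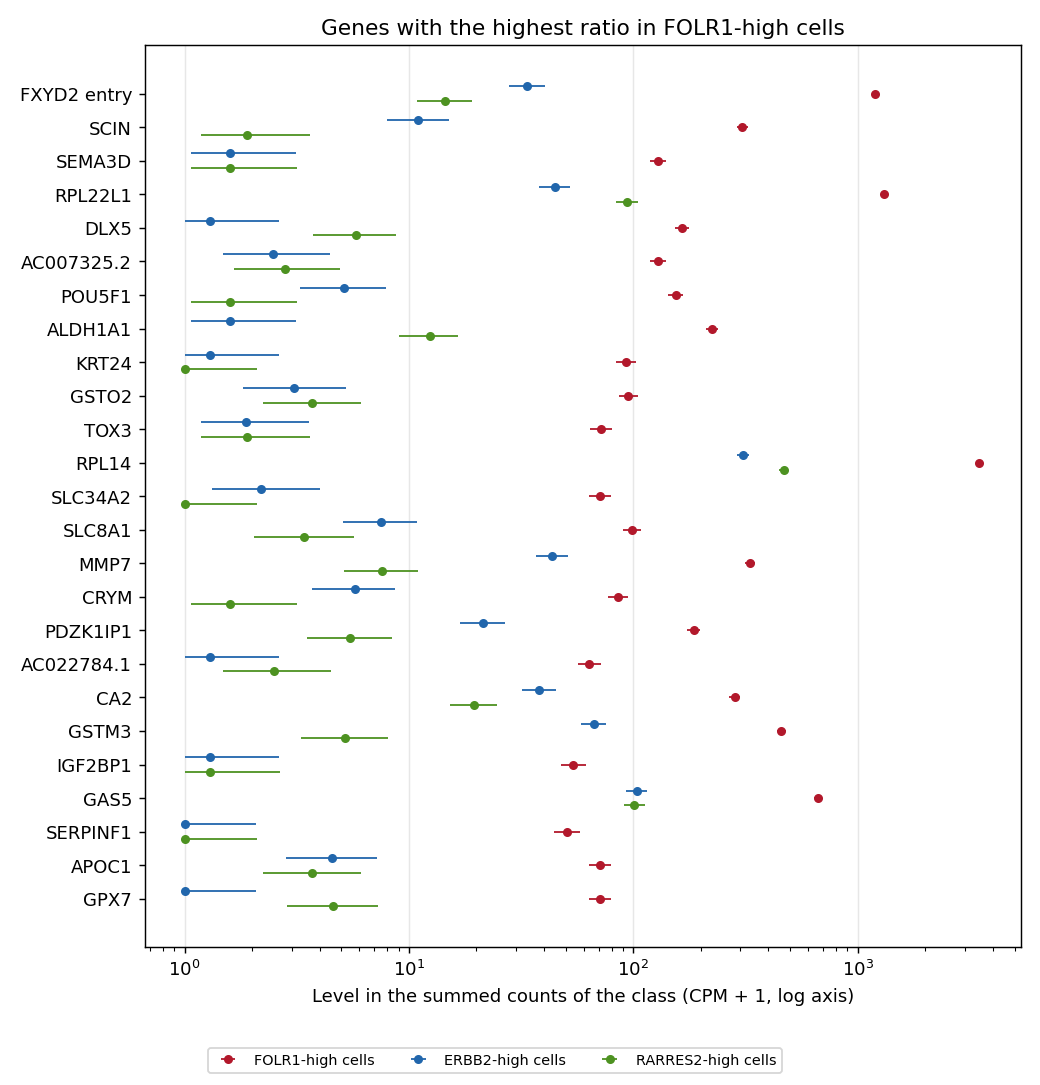
Levels of the 25 genes with the highest ratio in FOLR1-high cells, as CPM + 1 on a log axis, with 95% Poisson intervals of the summed counts of each class as bars (red FOLR1-high, blue ERBB2-high, green RARRES2-high cells). Every red point lies right of both others; the FXYD2 entry is at 1191 CPM in members and at 32.7 and 13.5 CPM elsewhere.

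The 15 genes lowest against both other classes included secreted and matrix proteins. IGFBP6, a secreted protein that binds insulin-like growth factor 2 (chromosome 12, 53097436 to 53102345, plus strand), was at 4.57 CPM (2.79 to 7.06) in members, 529 CPM in ERBB2-high and 375 CPM in RARRES2-high cells. Only 1.78% of members had a count of it, against 80.9% and 78.8%. SPARC, a matrix-binding glycoprotein, had a single count in members (0.228 CPM, 0.00578 to 1.27) and stood at 97.1 and 140.1 CPM in the others. Fibronectin, FN1, was at 5.94, 181 and 151 CPM, and the protease inhibitor gene SERPINE2 at 2.06, 230.4 and 187 CPM.

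Among genes of the cytoskeleton, TPM2, beta-tropomyosin, was at 8.68 CPM in members against 468 and 796 CPM. MAP1B, a microtubule-associated protein, was at 8.91, 399 and 508 CPM, and the plakin linker gene DST at 7.54, 286 and 182 CPM. Calcium-binding S100A2 was at 24.2 CPM (19.8 to 29.3) against 865 and 1710.2 CPM. Members were low in each of these, and no interval came near those of the other classes.

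The list also held signalling and metabolic genes. PSMB8, a subunit of the immunoproteasome, was at 4.34, 232 and 165 CPM. CD70, a ligand of the tumour necrosis factor family, was at 3.88, 588 and 142 CPM, and the chemokine gene CXCL1 at 5.94, 267 and 253 CPM. SLC16A3, which exports lactate, was at 8.45, 204 and 248 CPM. The imprinted gene PHLDA2 was at 26.3, 651 and 613 CPM, the histone gene H2AFJ at 2.97, 185 and 297 CPM, and LINC00116 at 2.28, 115 and 248 CPM.

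**Figure D2:**
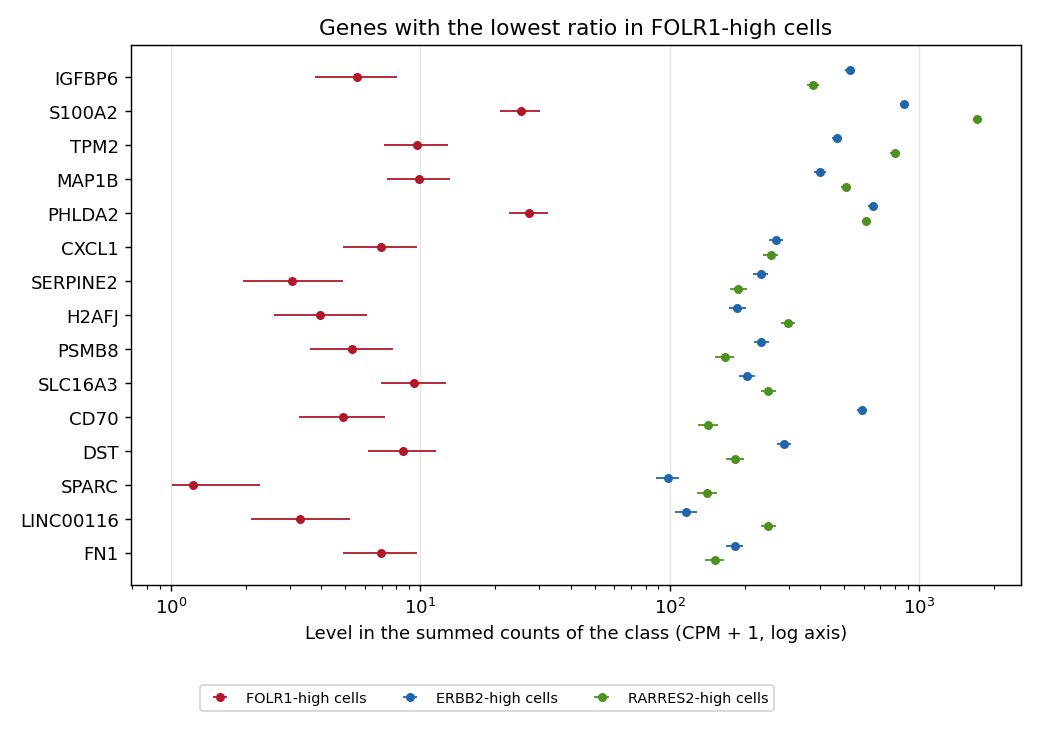
Levels of the 15 genes with the lowest ratio in FOLR1-high cells, as CPM + 1 on a log axis, with 95% Poisson intervals as bars (red FOLR1-high, blue ERBB2-high, green RARRES2-high cells). Every red point lies below 30 CPM and left of both others; IGFBP6 is at 4.57 CPM in members and at 529 and 375 CPM elsewhere.

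Of the 8135 genes compared, 49 had no count in any member, and 28 of these were present in both other classes above the level that 3 counts stand for. The following were picked after their values were seen, and 3 counts stand for 0. SMARCA2, an ATPase subunit of the SWI/SNF chromatin remodelling complex, had no count in members and 20.9 and 23.0 CPM elsewhere, so it was at least 30.6-fold and at least 33.6-fold lower. THBD, thrombomodulin, was at 35.1 and 19.8 CPM elsewhere, and GFRA1, a co-receptor for the growth factor GDNF, at 19.5 and 34.4 CPM. Interferon-inducible EPSTI1 was at 14.8 and 54.2 CPM. A count of 0 in 4376991 counts allows a level of up to 0.685 CPM.

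Lineage genes gave a mixed picture. Of 22 Mullerian and ovarian tumour genes, 21 had an entry of their own and 14 were compared: 2 were higher in members, 3 lower and 9 neither, beside 2.78% higher and 5.7% lower over all genes, with median log2 ratios of -0.46 and -0.05. The higher genes were CD24, a surface glycoprotein, at 1714, 435 and 46.7 CPM, and SPP1, the secreted protein osteopontin, at 2314, 538 and 99.97 CPM. A part of the members carried SPP1: it was seen in 52.6% of them against 67.5% of ERBB2-high cells, and the 258 members with more CXCL14 than DEFB1 counts held 198 CPM, below the ERBB2-high level. The lower genes included the protease inhibitor SLPI at 100.1, 1851 and 383 CPM, and MUC1 at 0.685, 11.5 and 36.5 CPM. PAX8 was at 143 CPM (132 to 154) in members and 103 and 94.9 CPM in the others, within 2-fold of both. MUC16, which encodes CA-125, was at 0.457, 0 and 13.8 CPM and too low to be compared.

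Among 33 genes of epithelial adhesion and tight junctions, 18 of the 30 with an own entry were compared; 1 was higher, 1 lower and 16 neither, shares near the 2.78% higher and 5.7% lower over all genes, with median log2 ratios of -0.23 and -0.57. The higher gene was the claudin CLDN1, at 195 CPM (182 to 208), 74.6 and 88.0 CPM, and the lower one was the cadherin CDH6, at 0.457, 63.4 and 82.9 CPM. CDH1, E-cadherin, was at 2.51 CPM in members, 8.56 and 44.9 CPM, and seen in 0.822% of members. EPCAM was at 105 CPM in members and 104 CPM in RARRES2-high cells, 36.9 CPM in ERBB2-high cells. Of the other claudins, CLDN4 was at 3.43, 5.31 and 6.88 CPM, CLDN7 at 10.97, 11.5 and 32.0 CPM, and CLDN6 had no count.

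Of 16 keratin genes, 9 were compared: KRT24 and KRT19 were higher, KRT5, KRT7 and KRT80 lower, and 4 neither, beside 2.78% higher and 5.7% lower over all genes, with medians of -1.19 and -1.74. KRT19 was at 1692 CPM (1654 to 1731) in members, 632 and 489 CPM, and seen in 96.8% of members. KRT7 was at 6.40 CPM (4.25 to 9.25), 94.7 and 684 CPM. KRT18 was at 1148 CPM, between the 549 CPM of ERBB2-high and the 4791 CPM of RARRES2-high cells.

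Of 33 mesenchymal and contractile genes, 23 were compared. Of these 10 were lower, 1 was higher and 12 were neither, beside 5.7% lower and 2.78% higher over all genes, with median log2 ratios of -1.68 and -1.48 against -0.33 and -0.16 over all genes. Beside FN1, SPARC and TPM2 above, CAV1, which builds caveolae, was at 114 CPM (104 to 124), 1197 and 4151 CPM. The receptor tyrosine kinase AXL was at 0.685, 51.3 and 79.3 CPM, and N-cadherin, CDH2, at 1.37, 36.3 and 80.5 CPM. Among transcription factor genes of the list, ZEB1 was at 28.1, 103 and 26.9 CPM, level with RARRES2-high cells. SNAI2 had no count in members and 29.8 and 4.79 CPM elsewhere; TWIST2 and ZEB2 also had none, and ZEB2 was as low as 1.77 and 2.99 CPM elsewhere. Vimentin, VIM, did not follow: it was at 2032 CPM in members, 4653 CPM in ERBB2-high and 1402 CPM in RARRES2-high cells. MYL9, a myosin light chain, was the higher gene, at 91.8, 0.885 and 23.6 CPM.

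Of 29 genes of folate and one-carbon metabolism, 19 were compared. Of these 2 were higher, none lower and 17 neither, beside 2.78% higher and 5.7% lower over all genes, with medians of -0.04 and -0.01. The higher genes work in the handling of homocysteine and glycine: CBS, cystathionine beta-synthase, was at 74.7 CPM (66.8 to 83.3), 19.2 and 15.9 CPM, and GLDC, of the glycine cleavage system, at 22.4, 4.43 and 4.79 CPM. TYMS, thymidylate synthase, was at 82.7, 72.6 and 79.0 CPM. FPGS, which adds glutamates to folate and keeps it in the cell, was at 17.8, 53.1 and 44.9 CPM, and the mitochondrial folate carrier gene SLC25A32 at 8.45, 19.2 and 18.3 CPM. Both were over 2-fold lower as plain levels but did not meet the limit against both classes once 10 CPM were added. The reduced folate carrier SLC19A1 was at 4.80 CPM (2.97 to 7.33), 10.3 and 7.18 CPM, and the other folate receptor genes FOLR2 and FOLR3 had no count in members.

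Sodium pump and ion transport genes held 9 compared genes of 23, of which 2 were higher and 1 lower, beside 2.78% and 5.7% over all genes. Another 5 of the 23 stood only in entries of several genes and were not compared. The FXYD2 entry above is of that kind and is not in these counts. CA2 and SLC34A2, described above, were higher, and the potassium channel gene KCNK1 was lower, at 44.1, 102 and 257 CPM; it no longer met the limit when mitochondrial and ribosomal protein genes were left out of the totals, and 3 genes were then higher. The pump subunit gene ATP1B1 was at 183, 89.4 and 107 CPM and met neither limit.

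Of 32 genes of antigen presentation and the interferon response, 27 were compared. Of these 9 were lower, 1 was higher and 17 neither, beside 5.7% lower and 2.78% higher over all genes, with medians of -0.67 and -1.92. HLA-B was at 106 CPM in members, 480 CPM in ERBB2-high and 379 CPM in RARRES2-high cells. B2M, the light chain of class I molecules, was at 766 CPM (740 to 792), 2852 and 3886 CPM. PSMB9, another immunoproteasome subunit, was at 6.40, 84.4 and 182 CPM. HLA-C was at 203, 547 and 340 CPM and did not reach the limit against RARRES2-high cells. HLA genes are alike and vary between people, so reads can move between them. Interferon-induced IFI27 was at 8.22, 75.8 and 1483 CPM, while BST2, which tethers viruses to the membrane, was the 1 higher gene, at 733, 247 and 307 CPM. Several other interferon-induced genes lay between the classes: IFITM1 was at 482, 51.9 and 883 CPM and ISG15 at 169, 70.2 and 1016 CPM.

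Of 30 chemokine, cytokine and secreted defence genes, 12 were compared; 4 were lower and none higher, beside 2.78% higher and 5.7% lower over all genes, with medians of -0.41 and -2.68. They included CXCL1 and SLPI, given above, and CXCL8 at 3.88, 42.5 and 79.6 CPM. CCL2 had no count in members or ERBB2-high cells and stood at 169 CPM in RARRES2-high cells. IL18 was at 167, 133 and 49.1 CPM, within 2-fold of ERBB2-high cells.

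Of 28 genes of glycolysis and hypoxia, 21 were compared. Of these 4 were lower, 1 was higher and 16 neither, beside 2.78% higher and 5.7% lower over all genes. The medians were -0.71 and -0.36. The subunits of lactate dehydrogenase went opposite ways: LDHA was at 557 CPM (535 to 579) in members, 2622 and 1724 CPM, and LDHB at 1142 CPM (1110.2 to 1174), 377 and 516 CPM. The pyruvate kinase gene PKM was at 704, 1866 and 2393 CPM, and the glucose transporter SLC2A1 at 21.0, 133 and 129 CPM. With SLC16A3, the lactate exporter, these completed the lower genes. With mitochondrial and ribosomal protein genes left out of the totals, 3 genes of the list were higher in place of 1. SLC16A1, the other main monocarboxylate transporter, was at 31.3, 47.8 and 44.9 CPM and so closer between classes.

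Redox and drug metabolism held 21 compared genes of 29, of which 2 were higher and 3 lower, beside 2.78% and 5.7% over all genes. GSTM3 and ALDH1A1 were higher. Lower were CYP1B1, a cytochrome P450, at 0.914, 183 and 74.2 CPM, the aldose reductase gene AKR1B1 at 88.6, 395 and 256 CPM, and the drug efflux pump gene ABCC1 at 12.8, 37.2 and 37.4 CPM. ALDH3A1 had no count in members against 74.9 CPM in ERBB2-high cells. The medians were -0.80 and -0.02.

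Of 23 tumour suppressor and driver genes, 17 were compared. Of these 2 were higher and 1 lower, beside 2.78% and 5.7% over all genes; 1 of 17 lower is near the latter. CDKN1A, which encodes the cell cycle inhibitor p21, was higher, at 32.9 CPM (27.7 to 38.7), 7.38 and 7.78 CPM. CDKN2A was at 19.4 CPM (15.5 to 24.0), 0.295 and 0 CPM, with a mean below the limit for comparison. MSH6, a mismatch repair gene, was lower, at 8.68 CPM (6.14 to 11.9), 59.0 and 45.8 CPM. Medians of the list were -0.05 and 0.16.

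None of 19 S phase genes and none of 23 genes of G2 and mitosis met either limit, beside 2.78% higher and 5.7% lower over all genes, shares at which 0 calls in lists of this size is no result. The medians were 0.58 and -0.00305 for the former and -0.03 and -0.46 for the latter. The proliferation marker MKI67 was at 169, 193 and 207 CPM. When mitochondrial and ribosomal protein genes were left out of the totals, 2 S phase genes were higher. Among 36 HOX genes, 11 were compared and HOXB7 was lower, at 94.4, 226 and 206 CPM; 1 lower gene of 11 is near the 5.7% over all genes. Under that other total HOXB7 no longer met the limit and 1 HOX gene was higher. HOXB6 was at 196, 129 and 31.7 CPM and HOXB5 at 114, 78.8 and 13.8 CPM, so members and ERBB2-high cells both held more of them than RARRES2-high cells.

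Splicing regulators were compared because transcript use is described below. Of 38, 32 were compared: RBM47 was higher, at 109, 47.5 and 11.7 CPM, MBNL1 lower, at 29.5, 72.0 and 101 CPM, and KHDRBS3 lower, at 1.37, 15.3 and 15.6 CPM. The other 29 met neither limit, so the calls were near the 2.78% higher and 5.7% lower over all genes, and the medians were -0.54 and -0.12. With mitochondrial and ribosomal protein genes left out of the totals, 2 were higher and 1 lower. ESRP1, the regulator of epithelial splicing, was at 0.914 CPM in members, 0 and 8.98 CPM.

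**Figure D3:**
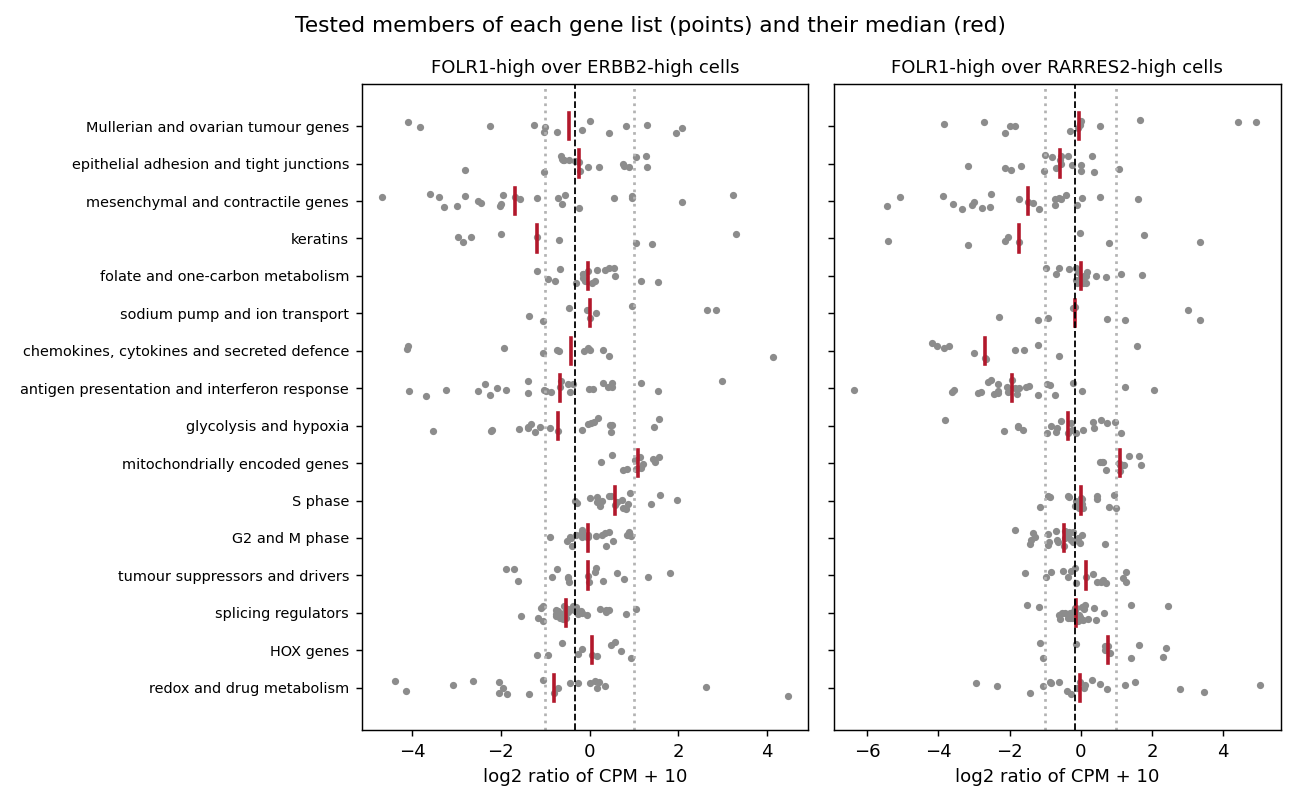
Log2 ratios of CPM + 10 of the compared members of 16 gene lists, FOLR1-high over ERBB2-high cells (left) and over RARRES2-high cells (right); each point is a gene, red bars are list medians, dashed lines the medians of all compared genes (-0.33 and -0.16) and dotted lines the 2-fold limits. Mesenchymal genes have medians of -1.68 and -1.48, and mitochondrially encoded genes 1.09 and 1.10.

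A large part of the RNA of members was mitochondrial and ribosomal. Mitochondrially encoded genes held 7.05% of members' counts (7.03 to 7.08%), 2.92% in ERBB2-high and 3.10% in RARRES2-high cells; only 2 members were over 20%. Of 12 compared mitochondrial genes, 7 were higher and none lower, beside 2.78% higher and 5.7% lower over all genes, with medians of 1.09 and 1.10. MT-CO3, a subunit of cytochrome c oxidase, was at 21302 CPM in members, 7642 and 6643 CPM, and MT-CO1 at 2588, 867 and 825 CPM, while MT-CO2 was at 844, 497 and 509 CPM. A high mitochondrial share can also mark damaged cells, and the part of RNA quality in these levels was not tested.

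Cytoplasmic ribosomal protein genes took 26.6% of members' counts, 11.9% of those of ERBB2-high and 14.96% of those of RARRES2-high cells. Of 76 compared, 22 were higher, none lower and 69 above both other classes, beside 2.78% higher and 5.7% lower over all genes, with medians of 1.04 and 0.87. RPS4X was at 6618, 2521 and 2155 CPM, and RPSA, which doubles as a laminin receptor, at 1550.4, 463 and 383 CPM. RPL22, the paralog of RPL22L1, was at 1837, 1172 and 1231 CPM and within 2-fold of both. Beside these, poly(A)-binding PABPC1 was at 1083, 513 and 491 CPM, and the translationally controlled TPT1 at 5312, 5145 and 3842 CPM. Members also held fewer different genes: thinned to 2000 counts, a member showed a median of 945 genes (936 to 956), an ERBB2-high cell 1144 and a RARRES2-high cell 1094. The interval of this median takes cells of this library as units, and cells are not replicates. The spread between members was wider, with quartiles of 893 and 1004 genes.

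Over 705 members thinned to 2000 counts, the ratio of variance to mean had a median of 1.07 over 1329 genes and was above 2 for 55 genes. It was highest for SPP1, at 14.8, followed by the ferritin heavy chain FTH1 at 11.7, the nuclear RNA MALAT1 at 10.6, the calling gene CXCL14 at 7.80 and the actin-binding thymosin TMSB4X at 7.002. KRT18 at 5.99, the FXYD2 entry at 5.82, SLPI at 5.64, MT-CO3 at 5.64 and the ferritin light chain FTL at 4.74 completed the first 10. In ERBB2-high and RARRES2-high cells the ratio was 13.0 and 28.6 for FTH1 and 27.8 and 13.7 for MALAT1, above the values in members. It was 2.32 and 2.48 for SPP1, 1.44 and 1.98 for the FXYD2 entry and 2.66 and 3.29 for TMSB4X, below them. Variance over mean grows with the mean count, and mean counts differ between classes.

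A split of members by the calling genes CXCL14 and DEFB1 gave 258 cells with more CXCL14, 187 with more DEFB1 and 285 with equal counts. Between the first and the second group, 11 of the 25 leading genes differed at least 2-fold. MMP7 was at 40.5 CPM in the cells with more CXCL14 and 682 CPM in those with more DEFB1, the FXYD2 entry at 183 and 2371 CPM, KRT24 at 5.68 and 191 CPM, and SPP1 at 198 and 3976 CPM. IGF2BP1 went the other way, at 92.4 and 5.64 CPM, as did SERPINF1, at 85.3 and 6.44 CPM. SCIN was at 281 and 309 CPM in these groups. ALDH1A1 was at 163 and 160 CPM in them and at 319 CPM in the 285 members with equal counts.

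Of the 25 leading genes, 21 were at least 2-fold above the higher other class in each of the 3 groups and in the deeper and the shallower 365 members alike. The exceptions were MMP7, KRT24, IGF2BP1 and SERPINF1. All 15 low genes were at least 2-fold below the lower other class in each of these subsets. Both sets of genes were chosen by their ratios in the same cells, so the subsets are no separate check on them.

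**Figure D4:**
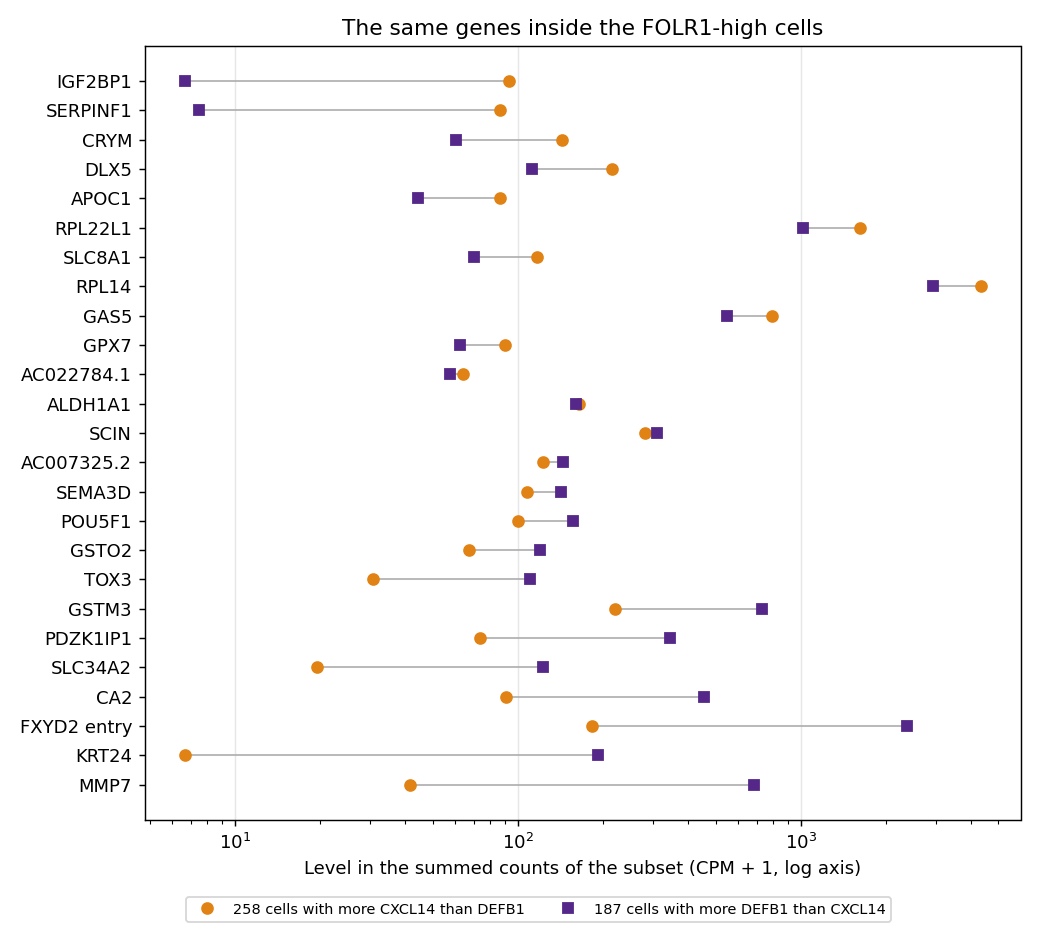
Levels of the 25 leading genes inside the FOLR1-high cells, as CPM + 1 on a log axis, in 258 members with more CXCL14 than DEFB1 (orange circles) and 187 with more DEFB1 than CXCL14 (purple squares). MMP7 lies at 40.5 and 682 CPM and IGF2BP1 at 92.4 and 5.64 CPM, while SCIN lies at 281 and 309 CPM.

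Long reads also show which transcript of a gene is used. Of 3849 genes with several listed transcripts and at least 50 counts in each class, 8 had a transcript whose share in members was at least 30 percentage points above, or below, its share in both other classes (0.208%). The same count was 6 for the ERBB2-high and 13 for the RARRES2-high cells, and the median difference of members from the nearer class was 1.41 points. In 6 of the 8 genes the share was above the others and in 2 below, and 7 of the 8 are named here. None of the 8 was also a gene with a higher level and 1, TXNDC9, was lower in level. All 8 kept their direction in members with more CXCL14, in those with more DEFB1 and in the deeper and the shallower 365 members. The same 7 stayed at least 20 points apart in each. Members with equal counts of CXCL14 and DEFB1 were not looked at by themselves. The 8 were chosen in the same cells, so this is no separate check. Exon positions and bases below are those of GENCODE release 29 on GRCh38.

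ACP1 encodes a low molecular weight protein tyrosine phosphatase. Its main transcripts differ in a coding exon of 114 bases that is used one in place of the other, and by 3 bases at the listed start of exon 1. ENST00000272067 took 64.9% of 792 counts in members (61.5 to 68.2%), 26.5% of 670 in ERBB2-high and 21.9% of 900 in RARRES2-high cells. ENST00000272065 took 34.7%, 72.6% and 77.8%. The level of the gene itself lay within 2-fold in all classes, at 181, 198 and 269 CPM. The exons are printed because they are what the transcripts exchange; set side by side without gaps they differ at 52 of 114 bases (54.4% identity), and capitals mark the differing bases. The first lies at chr2:272192-272305 and the second at chr2:272037-272150, both on the plus strand.
ACP1 exon 3 of ENST00000272067: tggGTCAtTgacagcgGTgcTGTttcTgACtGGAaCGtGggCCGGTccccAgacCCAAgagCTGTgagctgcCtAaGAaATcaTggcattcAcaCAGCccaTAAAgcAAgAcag
ACP1 exon 3 of ENST00000272065: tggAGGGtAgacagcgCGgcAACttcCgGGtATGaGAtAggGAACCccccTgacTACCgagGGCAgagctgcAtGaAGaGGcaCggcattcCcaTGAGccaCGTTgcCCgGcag

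ACOT9, a mitochondrial acyl-CoA thioesterase, showed the largest difference. ENST00000336430, which lacks a coding exon of 27 bases, took 65.8% of 171 counts in members (58.5 to 73.1%), 17.2% of 101 in ERBB2-high and 8.78% of 182 in RARRES2-high cells. ENST00000379303, which holds the exon, took 25.7%, 70.5% and 83.8%. The transcripts also differ in the last exon, of 312 bases in the former and 1730 in the latter, and by 3 bases in exon 1, so the shares do not show which of these the reads tell apart. The exon lies at chrX:23734341-23734367 on the minus strand, and its length is a multiple of 3 bases. The junction is shown with 20 bases of each neighbouring exon in lower case and the exon in capitals.
ACOT9 with exon 3: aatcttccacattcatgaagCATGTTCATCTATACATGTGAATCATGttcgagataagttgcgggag
ACOT9 without exon 3: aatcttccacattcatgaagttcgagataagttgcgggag

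MFF, the receptor on mitochondria for the fission protein DRP1, has a set of alternative coding exons. ENST00000304593, which holds exons 6 and 7, took 49.4% of 282 counts in members (43.3 to 55.3%), 20.2% of 519 in ERBB2-high and 10.8% of 240 in RARRES2-high cells, 29.2 points from the nearer class and so just under the limit. ENST00000354503, which skips both, took 16.4%, 24.0% and 29.2%. These transcripts also differ in the listed start of exon 1 and in the length of the last exon, 849 against 230 bases, so the shares are not those of the exons alone. Exon 6 lies at chr2:227347226-227347384 and exon 7 at chr2:227352514-227352573, together 219 coding bases on the plus strand. They are shown in capitals between 20 bases of the neighbouring exons.
MFF with exons 6 and 7: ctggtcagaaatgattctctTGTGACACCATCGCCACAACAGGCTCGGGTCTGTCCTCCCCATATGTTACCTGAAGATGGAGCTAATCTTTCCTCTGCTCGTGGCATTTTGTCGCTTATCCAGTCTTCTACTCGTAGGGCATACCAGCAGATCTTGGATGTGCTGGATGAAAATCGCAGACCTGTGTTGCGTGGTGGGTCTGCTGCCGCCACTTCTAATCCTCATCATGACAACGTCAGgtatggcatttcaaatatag
MFF without them: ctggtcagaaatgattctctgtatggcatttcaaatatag

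Other transcripts set apart in members ended early. TXNDC9, a thioredoxin-like protein, used ENST00000409434, whose last exon 4 is extended to 676 bases, for 46.2% of 164 counts (38.5 to 54.3%) against 10.9% of 320 and 5.57% of 316, and the full ENST00000264255 for 53.6%, 89.0% and 94.1%. BFAR, an anti-apoptotic membrane protein, used ENST00000562442, which ends in an extended exon 4 of 786 bases, for 79.3% of 403 counts (74.9 to 83.0%) against 48.7% and 44.3%. ELOVL5, a fatty acid elongase, used the transcript ENST00000370913 of 3 exons for 53.7% of 285 counts (47.7 to 59.6%) against 16.7% and 22.6%. When only whole-number estimates were kept, that share of ELOVL5 was 95.03%, 83.6% and 71.6%, a gap under 20 points to the nearer class. The other 7 genes stayed at least 20 points apart.

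HMGA2, a chromatin protein of embryonic tissue and many tumours, used ENST00000403681, its transcript with the last exon at 65963245 to 65966295 on chromosome 12, for 88.5% of 348 counts (84.7 to 91.7%) against 60.3% and 53.3%. FAM177A1 used ENST00000280987 for 20.3% of 186 counts against 46.5% and 48.2%. NDUFS5, a subunit of respiratory complex I, used ENST00000372967 for 98.0% of 4477 counts (97.5 to 98.4%) against 71.8% of 2997 and 59.5% of 1775. That transcript differs from ENST00000372969 in an untranslated first exon of 81 in place of 85 bases, ending at 39026398 and not at 39026402 on chromosome 1. These were between 26.2 and 28.2 points from the nearer class. With fewer than 100 counts in a class, ZNF880 and FLAD1 also passed the limit: ENST00000422689 of ZNF880 took 89.0%, 51.4% and 46.0%, and ENST00000368431 of FLAD1 60.0%, 26.9% and 16.7%.

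**Figure D5:**
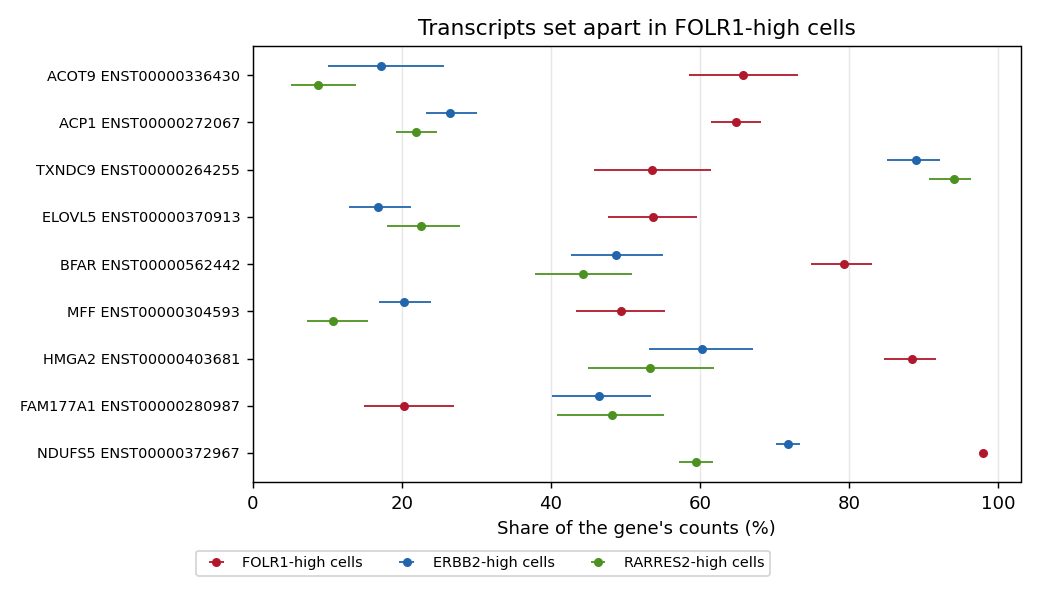
Share of each gene's counts taken by 1 named transcript in FOLR1-high (red), ERBB2-high (blue) and RARRES2-high cells (green), with 95% Clopper-Pearson intervals as bars, for 9 of the 10 genes with the largest difference and at least 100 counts in every class. In each gene the red bar overlaps neither of the others; ACOT9 is at 65.8% in members against 17.2% and 8.78%.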

How the data were processed

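Estimated counts per transcript and barcode were used as the authors deposited them; the series' design text names Isosceles, and GRCh38 and Cell Ranger 6.0.1 come from the submitters' processing notes. No source used here names an aligner or annotation release, or says how molecular identifiers were treated. If molecules were counted more than once, the intervals are too narrow. Counts were summed per gene name, where they were whole, and gene names listed together were kept as 1 entry. Per class, CPM had exact Poisson and shares exact Clopper-Pearson intervals at 95%, the latter on rounded counts. With 1 library there was no test. A gene was called at a 2-fold ratio of CPM + 10 against both other classes, given a mean of at least 10 CPM. A transcript was called at 30 points, given 50 counts in each class. Cells were thinned to 2000 counts, which left out 25, 34 and 22 cells of the FOLR1-high, ERBB2-high and RARRES2-high classes. Unthinned, the median genes per cell were 1851.5, 2144 and 2392. Named were the 25 highest and 15 lowest genes by ratio to the nearer class, up to 5 members per list, 10 transcripts with at least 100 counts and 10 variable genes; some named results are not reported here, and further names fall outside this rule and were chosen after their values were seen. The members and lists were chosen with earlier results of these data known. Of 99493 listed transcripts, 99233 matched GENCODE release 29. Doublets were not removed; Scrublet (scanpy 1.11.5) was an alternative. Scripts used python 3.11.15, numpy 2.4.6, scipy 1.17.1, pandas 2.3.3 and matplotlib 3.10.9, and were tested on simulated data.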

Additional observations from a re-analysis of the deposited data

Results flagged for a closer look

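Genes that were high in the FOLR1-high cells were also seen in barcodes that no comparison used. In the 107 barcodes of no class with 0 or 1 calling counts, RPL22L1 stood at 942 CPM (840 to 1053) and SCIN at 295 CPM (239 to 360), against 1305 and 305 CPM in members. In the 208 barcodes with a mixture of calling genes they stood at 246 CPM (221 to 272) and 50.5 CPM (39.8 to 63.2). In the 333 barcodes under 1000 counts RPL22L1 stood at 254 CPM (168.5 to 366), and SCIN had 2 counts, or 18.1 CPM, under the 27.2 CPM that a count of 0 allows there. The other values lie above the level that a count of 0 allows in the same barcodes. IGFBP6, which is low in members at 4.57 CPM, was also present in these barcodes, at 179 CPM in the 107, 343 CPM in the 208 and 190.2 CPM in the 333. The source of these counts was not tested.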

How the results depend on the processing

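The number of members was 705 with at least 2000 counts per barcode, 536 with at least 5 counts of the member genes, 672 with a share of at least 90%, 767 with at least 50%, 662 when only FOLR1 and CLDN3 called them, and 722 with Scrublet doublets removed. The balance of calls turned with the scale: leaving mitochondrial and ribosomal protein genes out of the totals gave more higher (379) than lower genes (371), and moved the median log2 ratio over all genes against RARRES2-high cells from -0.16 to 0.06. The mitochondrial share of members was 7.02% with at least 2000 counts, 6.90% with at least 5 counts of the member genes, 6.92% at a share of 50% and 7.09% without Scrublet doublets. Genes lower in members numbered 928 when 1 CPM was added in place of 10, and 243 at a mean of at least 50 CPM. They numbered 89 at 4-fold, and 293 when ratios were centred on the median of all genes, an alternative chosen after seeing the data; centred, 337 genes were higher, 53.5% of those called. Genes higher numbered 109 at a mean of at least 50 CPM and 55 at 4-fold. Genes with a transcript set apart numbered 0 at 50 points and 35 at 20 points. Genes per cell came to 1547 when thinned to 4000 counts and 1851.5 when not thinned. Of 518 values of named genes under the alternatives, 518 kept their direction and a 2-fold ratio. Of 110 transcript shares, 110 kept their direction and 109 a gap of 20 points. These genes and transcripts were chosen for large differences in the same data, so these counts are no separate check. Of 440 counts of list members, 69 moved by more than 1.5 times. No paired analysis was possible because all classes lie within 1 library and nothing was tested. The limit on depth is 3 counts, or 0.685 CPM in members. The line and its culture before pooling cannot be told apart, and no replicate was used.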

Other observations

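Genes lower in the FOLR1-high cells made up 2.01% to 15.5% of the compared genes of a chromosome. Chromosomes 18 and 8 are given because they had the highest shares of lower and of higher genes. Entries of several genes were left out of these counts but not of the shares over all genes. On chromosome 18, 18 of 116 compared genes were lower (15.5%) and 1 was higher, against 5.7% lower over all 8135 genes. On chromosome 8, 14 of 281 compared genes were higher (4.98%) and 13 lower, against 2.78% higher over all genes. Neighbouring genes are not independent, and no test was made.

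Some further genes were chosen after their values were seen. MDK, the secreted growth factor midkine, was at 620 CPM in members, 26.0 CPM in ERBB2-high and 1440 CPM in RARRES2-high cells. IGF2BP3, a relative of IGF2BP1, was at 77.7, 6.79 and 47.3 CPM, and IGF2BP2 at 147, 101 and 137 CPM. The surface receptor CD44 was at 91.6, 213 and 227 CPM. SNHG5, a host gene of small nucleolar RNAs like GAS5, was at 76.5, 21.5 and 13.2 CPM.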
